A study of Rattus norvegicus with 20 samples.

Results

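The genes described here are the immediate early genes, chosen by name as a list of 33 rat symbols. Of these, 32 have a row in a table of 30560 genes, and Dusp1 is not analysed here. Immediate early genes are switched on within minutes of a stimulus, without new protein synthesis, by transcription factors that are already present in the cell and are activated by kinases. Many of their messengers are short-lived, and several of their products are transcription factors (the AP-1 subunits, the EGR zinc fingers, the NR4A orphan nuclear receptors, Klf factors and Myc) or brakes on the same pathway (dual specificity phosphatases, the RNA decay factor Zfp36). In kidney and heart they are known to respond to injury, mechanical load, ischaemia and vasoactive hormones.

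RNA-seq libraries were made from kidney cortex and from left ventricle, each from the same 10 male rats, which the labels call hypertensive and WT in genotype, without naming the strain. In both treatment arms a blood pressure telemeter was implanted at 8 weeks of age, a diet with 4% NaCl was eaten for 3 weeks, and tissue was taken under isoflurane. Over those weeks 5 rats received Maresin 1 (MaR1), a lipid mediator made in the body from docosahexaenoic acid, from a subcutaneous osmotic minipump that delivered 1.3 µg/kg/day at most, and 5 rats received vehicle from the same kind of pump. Each rat gave 1 library per organ, so there are 4 groups of 5: kidney with MaR1, kidney with vehicle, heart with MaR1 and heart with vehicle. Values listed per library run from RB035 to RB039 for MaR1 rats and from RB030 to RB034 for vehicle rats. No arm on a normal diet and no normotensive arm was analysed here, and each tissue was taken at a single time.

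Promoters of 23 of the 32 genes were found in RefSeq (build GRCr8, 250 bases before to 50 bases after the annotated start). They were searched on both strands for 5 motifs through which these genes are known to be controlled or which they bind. These were the cAMP response element TGACGTCA, the AP-1 site TGACTCA, the EGR site GCGTGGGCG, the TATA box TATAAA and the CArG box bound by serum response factor. The CArG box was found in 5 of the 23 promoters (Dusp5, Egr1, Egr2, Klf6 and Zfp36), against 1.64% of 33469 promoters of the same length. The cAMP response element was found in 3 (Btg2, Ier2 and Jund), against 1.83%, and the EGR site in 1 (Jund), against 0.544%. TATAAA was found in 6 (Ccn1, Fosb, Gadd45g, Ier5, Junb and Klf4), against 14.2%, and TGACTCA in 0, against 4.63%. No 2 matches overlapped. A match describes letters in this window and is neither a proven site nor a cause of any value below. Of the 8 genes with a CArG box or a cAMP response element, 6 that recur in the results are printed 5′ to 3′, with all matches to the 5 motifs in capitals. Their windows are Egr1 chr18:26736828-26737127, plus strand; Dusp5 chr1:262543524-262543823, plus strand; Zfp36 chr1:92799059-92799358, minus strand; Btg2 chr13:48087641-48087940, minus strand; Ier2 chr19:40399123-40399422, plus strand; Jund chr16:18769722-18770021, minus strand.
Egr1: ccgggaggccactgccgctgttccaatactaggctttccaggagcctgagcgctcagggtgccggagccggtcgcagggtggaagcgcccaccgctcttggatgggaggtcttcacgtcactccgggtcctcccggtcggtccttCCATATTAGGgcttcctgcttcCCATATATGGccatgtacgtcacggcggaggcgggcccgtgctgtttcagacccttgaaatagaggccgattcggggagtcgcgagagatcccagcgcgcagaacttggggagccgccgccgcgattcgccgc
Dusp5: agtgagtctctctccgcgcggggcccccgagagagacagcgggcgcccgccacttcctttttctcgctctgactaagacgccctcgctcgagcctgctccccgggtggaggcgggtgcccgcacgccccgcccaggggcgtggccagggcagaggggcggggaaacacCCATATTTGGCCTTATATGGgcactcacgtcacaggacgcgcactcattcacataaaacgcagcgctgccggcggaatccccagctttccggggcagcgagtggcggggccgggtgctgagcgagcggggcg
Zfp36: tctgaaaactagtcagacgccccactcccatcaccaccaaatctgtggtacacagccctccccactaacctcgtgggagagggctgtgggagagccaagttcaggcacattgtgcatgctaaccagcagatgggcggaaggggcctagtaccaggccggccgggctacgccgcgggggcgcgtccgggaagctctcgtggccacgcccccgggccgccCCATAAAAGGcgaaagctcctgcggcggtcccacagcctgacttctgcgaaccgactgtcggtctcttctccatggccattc
Btg2: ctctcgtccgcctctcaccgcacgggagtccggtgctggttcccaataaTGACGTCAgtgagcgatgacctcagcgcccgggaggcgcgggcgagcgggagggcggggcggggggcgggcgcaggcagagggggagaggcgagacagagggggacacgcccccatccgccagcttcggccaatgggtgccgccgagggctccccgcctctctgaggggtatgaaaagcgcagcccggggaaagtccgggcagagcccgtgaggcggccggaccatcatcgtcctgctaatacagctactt
Ier2: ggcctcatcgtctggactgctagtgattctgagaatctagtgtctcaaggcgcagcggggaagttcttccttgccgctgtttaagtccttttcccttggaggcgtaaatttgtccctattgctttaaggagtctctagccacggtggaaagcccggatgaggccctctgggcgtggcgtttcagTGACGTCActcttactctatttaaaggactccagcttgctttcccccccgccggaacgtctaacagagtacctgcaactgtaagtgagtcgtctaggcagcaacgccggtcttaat
Jund: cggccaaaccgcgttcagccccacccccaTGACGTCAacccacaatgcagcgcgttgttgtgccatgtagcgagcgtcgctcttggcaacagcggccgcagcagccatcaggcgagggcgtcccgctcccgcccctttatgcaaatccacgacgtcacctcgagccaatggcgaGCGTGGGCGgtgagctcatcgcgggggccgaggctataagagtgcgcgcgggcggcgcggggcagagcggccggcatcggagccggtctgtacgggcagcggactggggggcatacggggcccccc
Egr1 and Dusp5 each carry 2 CArG boxes, which begin at -105 and -83 from the annotated start in Egr1 and, next to each other, at -82 and -72 in Dusp5.

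Libraries held 19383232 to 30342034 assigned fragments. FPKM here are fragments scaled to gene length and to a size factor taken over all 20 libraries, not to each library's own total. Markers of each organ fitted its label. The sum over 6 proximal tubule genes was 2711 to 4832 FPKM in kidneys and 1.37 to 14.9 in hearts. The sum over 6 cardiomyocyte genes was 0.418 to 1.43 FPKM in kidneys and 11311 to 19673 in hearts. Some libraries held other tissue. Myl7, an atrial myosin light chain, exceeded 100 FPKM in 5 hearts (RB035 and RB038 with MaR1; RB031, RB033 and RB034 with vehicle), and Upk1a, a urothelial gene, exceeded 1 FPKM in 4 kidneys (RB036, RB038 and RB039 with MaR1; RB034 with vehicle). The 5 adipocyte markers summed to 383 FPKM in the kidney of RB039, and the 5 inner medulla markers to 130 to 270 FPKM in MaR1 kidneys against 89.9 to 150 in vehicle kidneys. The 5 macrophage markers summed to 40 to 56.8 FPKM in MaR1 kidneys against 27.7 to 62 in vehicle kidneys, and to 81.3 to 174 FPKM in MaR1 hearts against 81.1 to 151 in vehicle hearts.

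Jund, the AP-1 subunit that is abundant in resting tissue, had the highest level of the members in both organs. It averaged 116 ± 11.9 FPKM in kidneys and 127 ± 26.2 FPKM in hearts (SD, n = 10 each). In kidneys it was followed by Zfp36, which binds AU-rich elements and speeds mRNA decay, at 67.0 ± 8.35 FPKM, by the stress and growth arrest gene Gadd45a at 41.6 ± 4.75 FPKM and by the AP-1 subunit Jun at 40.2 ± 6.44 FPKM, and the last 2 did not differ beyond their spread. In hearts the second was Klf4, a Krüppel-like transcription factor, at 49.0 ± 11.6 FPKM, followed by Jun at 37.4 ± 6.01 FPKM, the antiproliferative gene Btg2 at 35.4 ± 6.12 FPKM and Zfp36 at 35 ± 4.32 FPKM, and those 3 lay within each other's spread. The archetypal members were lower. Fos averaged 7.50 ± 1.81 FPKM in kidneys and 6.05 ± 1.88 FPKM in hearts, and Egr1 13.6 ± 3.08 FPKM in kidneys and 19.4 ± 7.25 FPKM in hearts. At the low end, Egr3 averaged 0.148 FPKM in kidneys and 1.37 FPKM in hearts, and Egr4 never exceeded 2 fragments in any library. Junb was listed at 0 in all 20 libraries, in a row given the biotype pseudogene. That 0 is not read as the level of Junb in these organs.

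**Figure D1:**
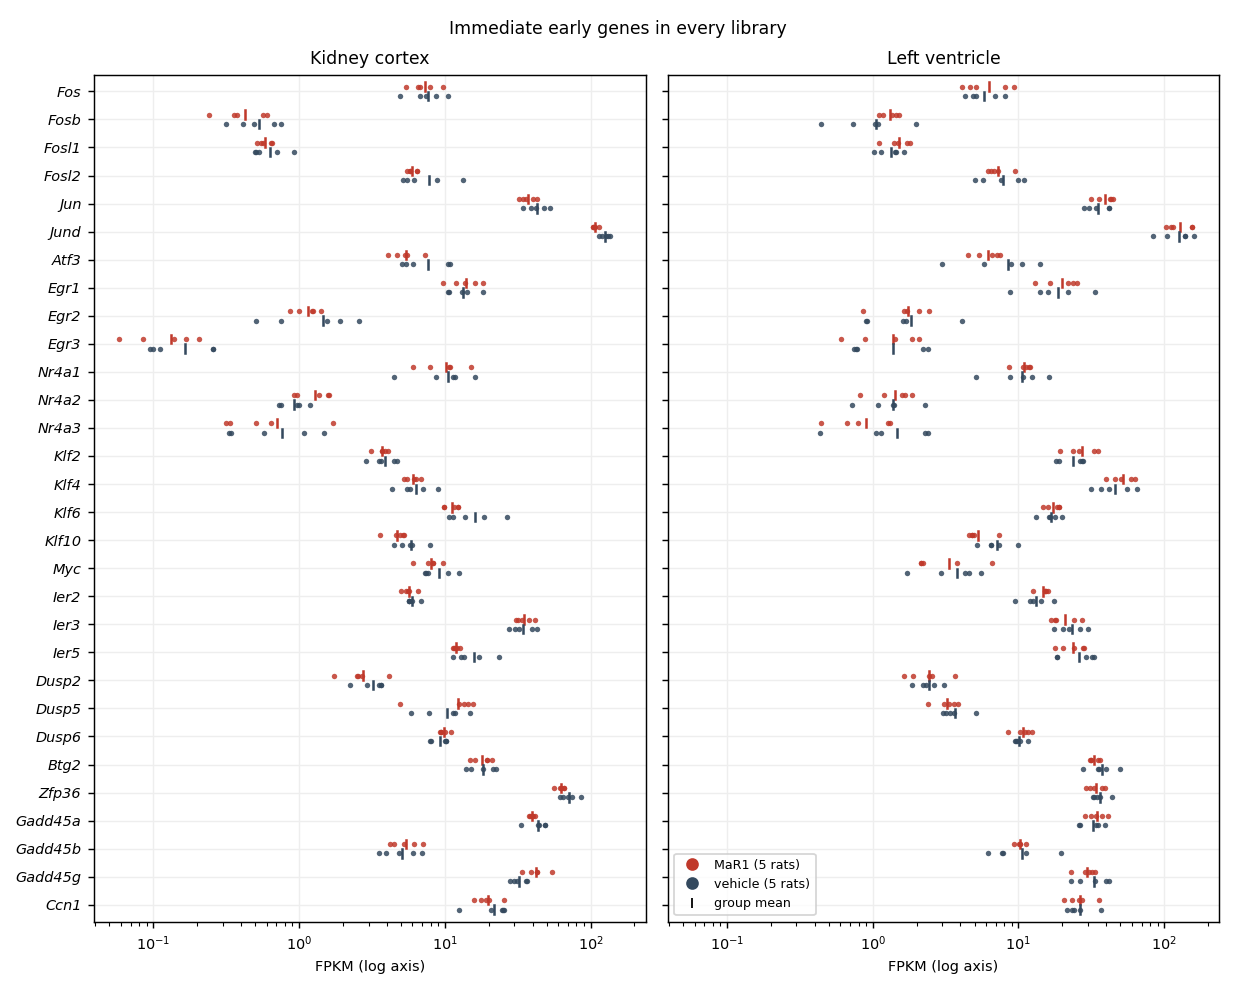
FPKM on a log axis of 30 immediate early genes in every library of the kidney cortex (left) and left ventricle (right); points are rats, with MaR1 in red above vehicle in dark blue, and bars are group means. Jund is highest in both organs, Klf2 and Klf4 sit further right in hearts, and the MaR1 and vehicle points of nearly every gene are interleaved; Junb and Egr4 are not drawn.

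In the kidney, no difference between MaR1 and vehicle rats passed the test in any of the 26 immediate early genes that reached a mean of 1 FPKM. After adjustment over 12446 genes 0 members passed an adjusted p of 0.05, and 0 genes in all did (0% of those tested, and 0 by limma-voom on the recovered fragments); at an unadjusted p under 0.05 there were 2 members, beside 6.75% of all genes tested. With both organs in 1 model and the animal as replicate block, 10 genes passed in kidney, of which 0 were members. Of the 26 members, 8 had a positive and 18 a negative log2 fold change of MaR1 over vehicle, with a median of -0.09 and a range of -0.43 to 0.38, beside 6227 positive of 12446 and a median of 0.00 over all genes. Without the 4 kidneys with Upk1a over 1 FPKM the members' median was -0.20. That omission leaves only RB035 and RB037 with MaR1, against RB030, RB031, RB032 and RB033 with vehicle. Without 1 animal the median ran from -0.17 to -0.02, at -0.02 without RB030, -0.14 without RB036 and -0.17 without RB034. In whole tissue a change in the number of expressing cells and a change in RNA per cell cannot be told apart. The remaining 6 members were under the filter, with kidney means of 0.732 FPKM or less.

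Among the AP-1 subunits, all 5 tested had a negative estimate. Jund (chr16:18734122-18735799, minus strand, coordinates as the file gives them), whose promoter carries the cAMP response element and EGR site printed above, had 106.6, 114.9, 104.3, 105.1 and 104.5 FPKM in MaR1 kidneys, against 126.6, 119.3, 136.5, 132.0 and 115.2 FPKM in vehicle kidneys. The groups did not overlap, with the highest MaR1 kidney just under the lowest vehicle kidney, and this held for 1 member of 26, beside 1.23% of all genes tested. Its log2 fold change was -0.23 ± 0.07 (SE; 95% interval -0.38 to -0.08), with an adjusted p of 0.621. Jun, the main partner of Fos in AP-1, had 32.3, 42.6, 34.6, 35.9 and 40.0 FPKM in MaR1 kidneys, against 42.0, 34.5, 47.9, 52.8 and 39 FPKM in vehicle kidneys, and the groups overlapped (log2 fold change -0.21 ± 0.12, adjusted p = 0.781; -0.38 without the 4 Upk1a kidneys and -0.14 without RB033). Fos had 6.77, 7.88, 6.58, 5.44 and 9.78 FPKM in MaR1 kidneys, against 8.77, 7.42, 10.6, 6.76 and 4.92 FPKM in vehicle kidneys. All 5 MaR1 kidneys lay within the vehicle range of Fos (log2 fold change -0.06 ± 0.19, adjusted p = 0.984). Atf3, a stress-induced partner of AP-1, averaged 5.40 ± 1.23 FPKM in MaR1 kidneys and 7.61 ± 2.88 FPKM in vehicle kidneys, with an adjusted p of 0.758. Fosl2, a Fos relative, averaged 5.97 ± 0.418 FPKM in MaR1 kidneys and 7.79 ± 3.41 FPKM in vehicle kidneys (adjusted p = 0.841).

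No EGR, NR4A, Klf or Myc gene had an unadjusted p under 0.05 in kidney. Egr1, which couples growth factor and stress signals to transcription, had 12, 18.2, 16.0, 9.69 and 13.8 FPKM in MaR1 kidneys, against 10.7, 13.1, 18.2, 14.2 and 10.5 FPKM in vehicle kidneys. The highest value of both groups was 18.2 FPKM (log2 fold change 0.06 ± 0.18, adjusted p = 0.984). Nr4a2, an orphan nuclear receptor, had 0.929, 1.59, 0.971, 1.38 and 1.6 FPKM in MaR1 kidneys, against 1.19, 0.753, 0.724, 0.971 and 0.995 FPKM in vehicle kidneys. Of the MaR1 values 3 were above every vehicle value (log2 fold change 0.32 ± 0.15, 95% interval -0.02 to 0.66, adjusted p = 0.753). Klf6, a Krüppel-like factor induced by injury, had 12.3, 11.5, 9.91, 9.94 and 12.4 FPKM in MaR1 kidneys, against 26.6, 11.3, 13.8, 18.5 and 10.7 FPKM in vehicle kidneys. The vehicle kidneys RB030 and RB033 were above the other 8 (log2 fold change -0.43 ± 0.22, adjusted p = 0.753; -0.56 to -0.24 without 1 animal, at -0.24 without RB030). Klf2, Klf4 and Klf10 had log2 fold changes of -0.04, -0.04 and -0.27, and Myc of -0.16.

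Gadd45g and Ier5 had the lowest unadjusted p of the remaining kidney genes. Gadd45g, a growth arrest and stress gene (chr17:13376839-13378610, minus strand), had 42.7, 39, 43.2, 54.2 and 33.6 FPKM in MaR1 kidneys, against 29.9, 31.2, 36.6, 28.0 and 36.3 FPKM in vehicle kidneys. In 4 of 5 MaR1 rats it was above every vehicle kidney (log2 fold change 0.38 ± 0.12, 95% interval 0.10 to 0.65), and the adjusted p was 0.661. Of its relatives, Gadd45a had -0.13 ± 0.10 and Gadd45b 0.11 ± 0.19 on the log2 scale. Ier5, an immediate early gene linked to the heat shock response, had 12.2, 12.8, 11.7, 11.6 and 11.4 FPKM in MaR1 kidneys, against 23.7, 13.0, 13.6, 17.1 and 11.4 FPKM in vehicle kidneys. The MaR1 kidneys were tightly grouped at the low end of the vehicle range (log2 fold change -0.34 ± 0.16, adjusted p = 0.753; -0.44 to -0.19 without 1 animal, at -0.19 without RB030). Dusp5 and Dusp6, phosphatases that dephosphorylate ERK, had 0.21 ± 0.32 and 0.09 ± 0.09, and Ccn1, a secreted matrix protein, had -0.12 ± 0.19.

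**Figure D2:**
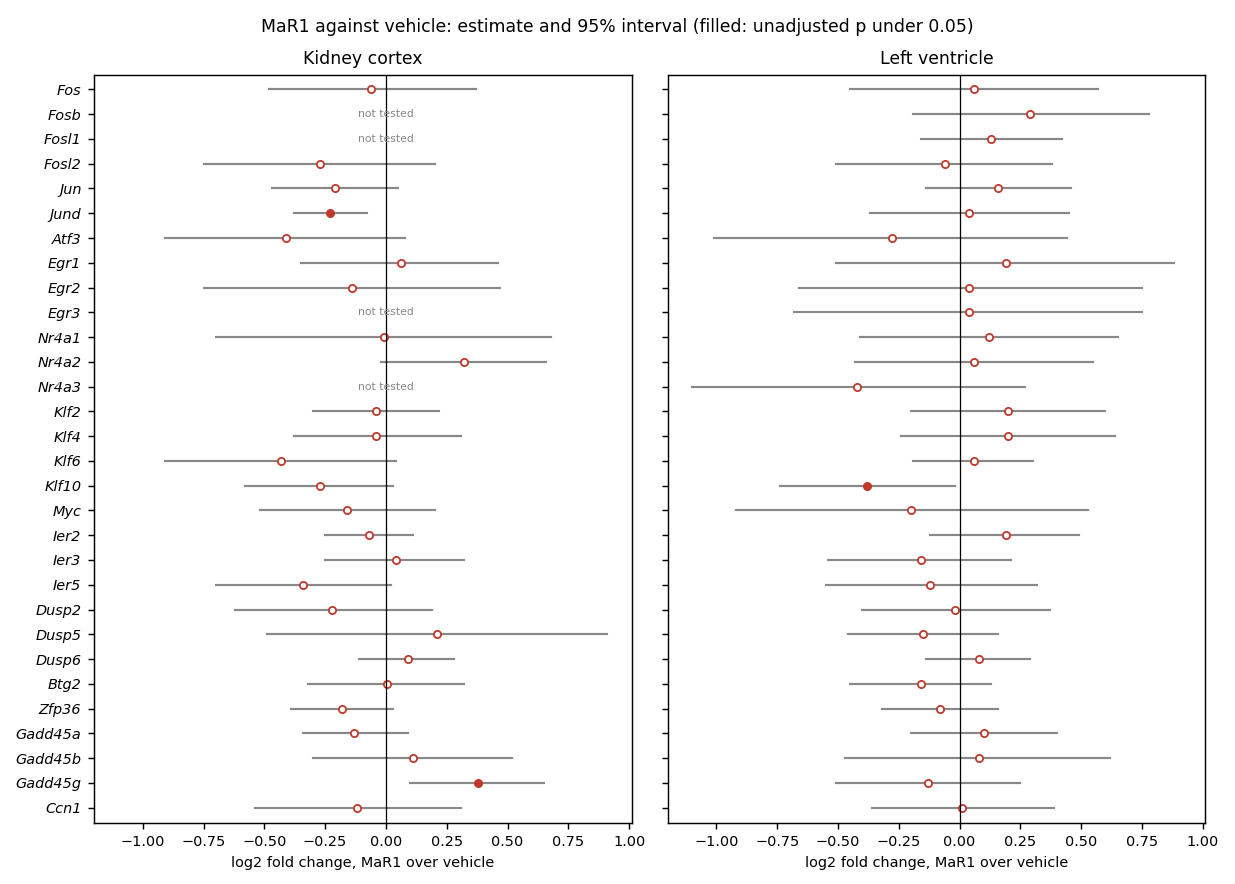
Estimates and 95% intervals of the log2 fold change of MaR1 over vehicle in kidney (left) and heart (right), from limma on log2(FPKM + 0.5); filled points have an unadjusted p under 0.05. Filled points are Jund and Gadd45g in kidney and Klf10 in heart, and no gene passes after adjustment.

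In the heart, no difference between MaR1 and vehicle rats passed the test in any of the 30 tested members. With 12237 genes adjusted over, 0 members and 0 genes passed (0%, and 0 by limma-voom), 1 member had an unadjusted p under 0.05 beside 4.6% of all genes, and 0 members had groups that did not overlap, beside 0.842%. Positive estimates were 18 and negative estimates 12, with a median of 0.04, beside 6637 positive of 12237 genes and a median of 0.01. The members' median was -0.02 without the 5 hearts with Myl7 over 100 FPKM. It was -0.20 over 29 members without the hearts whose Myl7 exceeded 10 times the lowest, which leaves 3 MaR1 hearts and 1 vehicle heart, RB030. That limit omits RB032 at 1.655 FPKM of Myl7, where the lowest heart had 0.163 FPKM. The members' median ran from -0.05 to 0.13 without 1 animal, at -0.03 without RB031, -0.05 without RB032 or RB035, 0.11 without RB039 and 0.13 without RB033.

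Klf10, a TGF-β-inducible Krüppel-like repressor, had 7.39, 4.77, 4.77, 4.92 and 4.60 FPKM in MaR1 hearts, against 6.52, 6.47, 5.23, 9.91 and 7.31 FPKM in vehicle hearts. In 4 of 5 MaR1 hearts it was below all vehicle hearts, and in RB035 it was not (log2 fold change -0.38 ± 0.16, 95% interval -0.74 to -0.02, adjusted p = 1). Nr4a3, an orphan nuclear receptor, had 1.31, 0.663, 0.440, 1.28 and 0.797 FPKM in MaR1 hearts, against 2.39, 0.438, 1.14, 2.27 and 1.06 FPKM in vehicle hearts, and the groups overlapped across their range (-0.42 ± 0.31, adjusted p = 1). Ier2, a nuclear protein of the immediate early class, had 15.2, 15.9, 15.2, 15.5 and 12.5 FPKM in MaR1 hearts, against 14.3, 9.54, 12.1, 17.5 and 12.6 FPKM in vehicle hearts (0.19 ± 0.14, adjusted p = 1). Fosb had 1.18, 1.51, 1.45, 1.35 and 1.11 FPKM in MaR1 hearts, against 1.08, 0.442, 0.734, 1.99 and 1.04 FPKM in vehicle hearts. All 5 MaR1 values lay within the vehicle range (0.29 ± 0.22, adjusted p = 1). Btg2 had 31.3, 35.3, 36.4, 31.7 and 31 FPKM in MaR1 hearts, against 49.7, 27.7, 35.7, 40.2 and 35 FPKM in vehicle hearts (-0.16 ± 0.13, adjusted p = 1). Without 1 animal these estimates ran from -0.65 (without RB031) to -0.25 (without RB030) for Nr4a3, from 0.08 (without RB031) to 0.29 (without RB033) for Ier2, from 0.13 (without RB031) to 0.48 (without RB033) for Fosb and from -0.26 (without RB031) to -0.06 (without RB030) for Btg2. Nr4a3 also moved to -0.26 without RB033 and -0.28 without RB037. In the 3 MaR1 hearts and 1 vehicle heart (RB030) left when Myl7 over 10 times the lowest was omitted, Nr4a3 had -1.37 and Btg2 -0.53. RB030 held the highest Nr4a3 and Btg2 of all 10 hearts, at 2.39 and 49.7 FPKM.

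Fos, Jun and Egr1 overlapped between the treatments in hearts too. Fos had 9.36, 4.13, 8.03, 5.08 and 4.66 FPKM in MaR1 hearts, against 8.04, 5.10, 4.27, 6.96 and 4.86 FPKM in vehicle hearts (log2 fold change 0.06 ± 0.23, adjusted p = 1). Without the 5 hearts with Myl7 over 100 FPKM the Fos estimate was -0.12 (adjusted p = 0.953). Jun had 42.5, 44.8, 43.1, 35.5 and 31.6 FPKM in MaR1 hearts, against 34.1, 28.4, 30.7, 42.0 and 41.7 FPKM in vehicle hearts (0.16 ± 0.14; 0.09 without RB031 and 0.28 without the 5 Myl7 hearts). Egr1 had 23.6, 25.3, 21.9, 16.5 and 12.9 FPKM in MaR1 hearts, against 8.73, 14, 15.9, 33.6 and 21.8 FPKM in vehicle hearts (0.19 ± 0.31). Vehicle hearts thus held both the lowest and the highest Egr1 value.

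**Figure D3:**
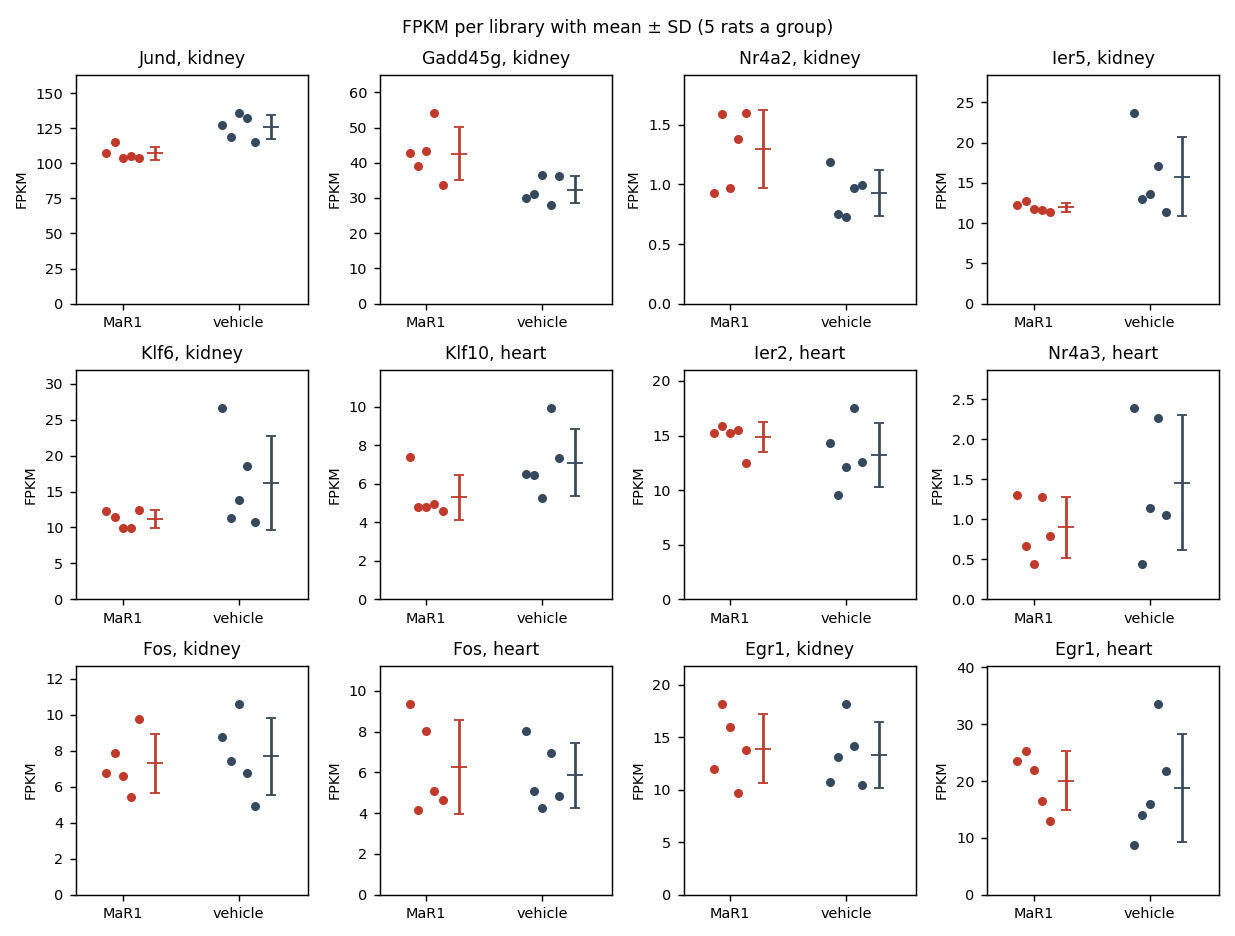
FPKM per library of immediate early genes in 12 panels, each naming the gene and the organ, with MaR1 left of vehicle and the mean ± SD of 5 rats beside the points. Jund in kidney is the only panel in which the groups do not touch. Vehicle rats spread wider than MaR1 rats for Ier5 and Klf6 in kidney and for Egr1, Ier2 and Nr4a3 in heart, among others. They spread less for Gadd45g and Nr4a2 in kidney and Fos in heart, among others.

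The response to MaR1 was compared between organs by the interaction, heart response minus kidney response, over 12984 genes. Again 0 members of 27 passed and 0 genes in all did (0%, and 0 by limma-voom); 1 member, beside 5.5% of all genes, had an unadjusted p under 0.05. Of the members 18 had a positive and 9 a negative estimate, with a median of 0.13, beside 6885 positive of 12984 and a median of 0.01 over all genes. The members' median was 0.41 without the 4 Upk1a animals, which leaves only RB035 and RB037 with MaR1. It was 0.03 to 0.24 without 1 animal (0.03 without RB032, 0.05 without RB035, 0.07 without RB037, 0.21 without RB034, 0.24 without RB039). The member with the low p was Gadd45g, with -0.51 ± 0.22 (adjusted p = 0.879). It had 33.6, 31.9, 22.8, 30.6 and 28.8 FPKM in MaR1 hearts, against 41.9, 22.8, 26.6, 40.2 and 33.4 FPKM in vehicle hearts, where the groups overlapped. Jun followed with 0.37 ± 0.19 (adjusted p = 0.908) and Klf6 with 0.49 ± 0.25 (adjusted p = 0.924). In hearts Klf6 had 18.9, 15.9, 18.9, 18.3 and 14.8 FPKM with MaR1, against 16.2, 13.3, 16.4, 19.9 and 17.9 FPKM with vehicle. Ier2, with 0.26 ± 0.17, had 5, 6.59, 5.72, 5.41 and 5.57 FPKM in MaR1 kidneys, against 5.69, 5.64, 5.92, 6.87 and 5.67 FPKM in vehicle kidneys. Gadd45a had 0.23 ± 0.17: 38.1, 41.5, 38.6, 39.6 and 40.0 FPKM in MaR1 kidneys against 43.6, 33.3, 48.5, 48.5 and 44.1 FPKM in vehicle kidneys, and 41.0, 37.4, 34.3, 28.6 and 31.3 FPKM in MaR1 hearts against 39.5, 26.2, 26.5, 35.1 and 34.3 FPKM in vehicle hearts. Fos and Egr1 had 0.12 ± 0.32 and 0.13 ± 0.38, with intervals of -0.55 to 0.78 and -0.68 to 0.93. Without the 4 Upk1a animals, with RB035 and RB037 as the only MaR1 rats, the interaction was 0.74 for Jun, 0.78 for Klf6 and 0.42 for Gadd45a. The lowest adjusted p of these 3 over all alternatives were 0.417, 0.525 and 0.741. Without 1 animal Klf6 had 0.29 without RB030, Ier2 0.17 without RB031 and Gadd45a 0.12 without RB032 and 0.15 without RB035.

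The genes upstream of this class and the feedback on it were read in the same fits. Of 25 upstream transcription factors and kinases, 24 were tested in kidney and 23 in heart, and 0 passed in either; 1 in each had an unadjusted p under 0.05, beside 6.75% of all genes in kidney and 4.6% in heart. Those were Rela, an NF-κB subunit, at 15.4 ± 0.841 FPKM in MaR1 kidneys and 17.3 ± 1.43 FPKM in vehicle kidneys (-0.16 ± 0.07, adjusted p = 0.721), and the JNK kinase Mapk8 at 5 ± 0.276 FPKM in MaR1 hearts and 5.71 ± 0.362 FPKM in vehicle hearts (-0.17 ± 0.06, adjusted p = 1). Of 39 other rapid response genes, 35 were tested in each organ and 0 passed. In kidney 5 and in heart 1 had an unadjusted p under 0.05, beside the same 6.75% and 4.6%. In kidney 13 estimates were positive and 22 negative, and of those 5 genes 1 was positive and 4 negative. The positive 1 was Rasd1, a dexamethasone-inducible Ras-like GTPase, at 10 ± 2.24 FPKM in MaR1 kidneys and 6.98 ± 1.41 FPKM in vehicle kidneys (0.49 ± 0.16, adjusted p = 0.661). The negative genes included Arc (-0.31 ± 0.11, adjusted p = 0.683) and Ifrd1 (-0.23 ± 0.09, adjusted p = 0.715). Of 13 inhibitors of MAP kinase signalling (Spry, Spred and Dusp genes), 11 were tested in kidney and 12 in heart, and 0 passed. In each organ 1 had an unadjusted p under 0.05, beside 6.75% and 4.6% of all genes. Spry1, which blocks receptor tyrosine kinase signalling, averaged 12.9 ± 1.79 FPKM in MaR1 hearts and 9.94 ± 1.32 FPKM in vehicle hearts (0.36 ± 0.11, adjusted p = 0.998).

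Kidney and heart were then compared over all 20 libraries. Of 27 tested members, 6 were higher in kidney, beside 43.6% of all genes, and 10 were lower in kidney, beside 41% (limma, adjusted p under 0.05). Kidneys and hearts did not overlap for 6 members, beside 56.9% of all genes. The 27, the 10 and the 6 include Fosl1, which reached the mean of 1 FPKM only through its heart values, so these counts describe the list and support no statement on it. The median log2 fold change of all genes was 0.02 as deposited and 0.351 after rescaling libraries to equal totals, when 9 members were called higher and 7 lower in kidney, beside 7440 higher and 3739 lower over all 12984 genes. Under quantile scaling 5 were called higher and 13 lower, beside 5242 and 5783 over all genes. Against these shifts, 10 genes kept their call in all 22 alternatives: Dusp5, Myc, Zfp36 and Ier3 higher in kidney, and Klf2, Klf4, Ier2, Btg2, Gadd45b and Ier5 lower in kidney.

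Klf4 and Klf2, Krüppel-like factors that endothelium is known to induce under flow, had the largest differences of the 27. Klf4 spanned 4.31 to 8.96 FPKM in kidneys, against 31.3 to 64.9 FPKM in hearts, with no overlap (fitted fold 7.32 higher in heart; log2 fold change of kidney over heart -2.87 ± 0.13, adjusted p = 4.67e-14). Klf2 spanned 2.90 to 4.70 FPKM in kidneys, against 18.2 to 35.1 FPKM in hearts, again with no overlap (fitted fold 6 higher in heart; -2.59 ± 0.11, adjusted p = 1.54e-14). Rescaling gave -2.53 for Klf4 and -2.25 for Klf2, and quantile scaling -2.94 and -2.65. The 5 endothelial markers summed to 40.3 to 55.2 FPKM in kidneys and 217 to 320 FPKM in hearts; their part in these differences was not tested. Klf6 and Klf10 lay closer, at -0.36 ± 0.13 (adjusted p = 0.0126) and -0.20 ± 0.11 (adjusted p = 0.113). The Klf6 estimate was -0.02 after rescaling (adjusted p = 0.928), -0.15 without the 5 Myl7 animals (0.419) and -0.36 without the 4 Upk1a animals (0.103).

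Other genes that were lower in kidney were the IER proteins Ier2, at 5.81 ± 0.547 FPKM in kidneys against 14 ± 2.34 FPKM in hearts (-1.19 ± 0.08, no overlap), and Ier5, at 13.8 ± 3.86 FPKM in kidneys against 24.9 ± 5.81 FPKM in hearts (-0.83 ± 0.13). Btg2 averaged 18.2 ± 3.05 FPKM in kidneys and 35.4 ± 6.12 FPKM in hearts (-0.94 ± 0.10, no overlap), and Gadd45b 5.26 ± 1.26 FPKM in kidneys and 10.4 ± 3.67 FPKM in hearts (-0.89 ± 0.16). Fosl1 averaged 0.609 ± 0.129 FPKM in kidneys, against 1.42 ± 0.265 FPKM in hearts, and these levels are given without a test. Egr1 and Ccn1, the cysteine-rich matricellular protein, were lower in kidney, at -0.44 ± 0.19 and -0.35 ± 0.14 (adjusted p = 0.0423 and 0.0207). After rescaling, Egr1 had -0.09 and Ccn1 -0.00 with adjusted p of 0.694 and 0.988, and without the 5 animals with Myl7 over 100 FPKM they had -0.02 and -0.15 with adjusted p of 0.949 and 0.328. The Egr1 call was also lost without the 4 Upk1a animals (adjusted p = 0.152), and without any 1 of RB033, RB034, RB035, RB036, RB037 and RB038, with estimates of -0.52 to -0.33 over all 10 omissions. The Ccn1 call was lost without RB034, RB035 or RB037, with estimates of -0.45 to -0.26.

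In the other direction, Dusp5, whose promoter holds the adjacent CArG boxes, spanned 4.94 to 15.7 FPKM in kidneys, against 2.41 to 5.10 FPKM in hearts (fitted fold 2.84; 1.51 ± 0.18, adjusted p = 2.09e-07). Only the lowest kidney was below the highest heart. Myc, a transcription factor of growth, spanned 6.05 to 12.6 FPKM in kidneys, against 1.73 to 6.55 FPKM in hearts (1.23 ± 0.19), and the RNA decay factor Zfp36 55.8 to 86.0 FPKM in kidneys, against 29.3 to 43.9 FPKM in hearts, with no overlap (0.93 ± 0.07, adjusted p = 2e-10). Ier3, an apoptosis regulator, averaged 34.8 ± 5.28 FPKM in kidneys and 22.1 ± 4.73 FPKM in hearts (0.66 ± 0.11). Gadd45a had 0.32 ± 0.09, with an adjusted p of 0.00193, or 0.125 without the 4 animals with Upk1a over 1 FPKM. Gadd45g had 0.26 ± 0.11 with an adjusted p of 0.0358, or 0.0911 under quantile scaling, 0.185 without the 5 Myl7 animals and 0.123 without the 4 Upk1a animals. Its call was also lost without any 1 of RB031, RB032, RB034, RB037 and RB038, with estimates of 0.20 to 0.32 over the omissions. Fos, Jun, Jund, Fosl2 and Atf3 were not called: estimates lay between -0.14 and 0.31, and the signs of Jund, Fosl2 and Atf3 turned positive after rescaling (Jund also under quantile scaling and without the 5 Myl7 animals). Rescaling called Fos (0.64), Jun (0.46) and Dusp2 (0.54) higher in kidney, and Fos had 0.60 without the 5 Myl7 animals (adjusted p = 0.0275). Without the 4 Upk1a animals Fos had 0.05 (adjusted p = 0.794) and Jun 0.02 (adjusted p = 0.916), while Dusp2 had 0.43 and was called (adjusted p = 0.0317). Without the 5 Myl7 animals Jun had 0.22 (adjusted p = 0.096) and Dusp2 0.10 (adjusted p = 0.717). Without 1 animal Fos was called without RB035, Dusp2 without RB036, Egr2 and Klf10 without RB030, and Dusp6 and Nr4a2 without RB039. Their estimates ran from 0.20 to 0.39, 0.17 to 0.30, -0.49 to -0.21, -0.26 to -0.14, -0.15 to -0.09 and -0.32 to -0.14 over the omissions.

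The upstream list differed between organs in 18 of 24 tested genes, 5 higher and 13 lower in kidney, beside the 43.6% higher and 41% lower of all genes. Serum response factor, Srf, which binds the CArG box, averaged 13.9 ± 1.15 FPKM in kidneys and 31.2 ± 3.20 FPKM in hearts (-1.14 ± 0.06), and its partner Elk3 5.30 ± 0.829 FPKM in kidneys and 21.9 ± 3.56 FPKM in hearts (-1.95 ± 0.09). Rps6ka1, a kinase downstream of ERK, averaged 5.14 ± 0.385 FPKM in kidneys and 0.981 ± 0.107 FPKM in hearts. It reached the mean of 1 FPKM only through its kidney values, so these levels are given without a test. The 18, the 24 and the 5 include it, so these counts describe the list and support no statement on it. Of the other rapid response genes 24 of 35 differed, 13 higher and 11 lower in kidney. Of the inhibitors of MAP kinase signalling 6 of 11 differed, 2 higher and 4 lower. Both counts stand beside the same shares of all genes.

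**Figure D4:**
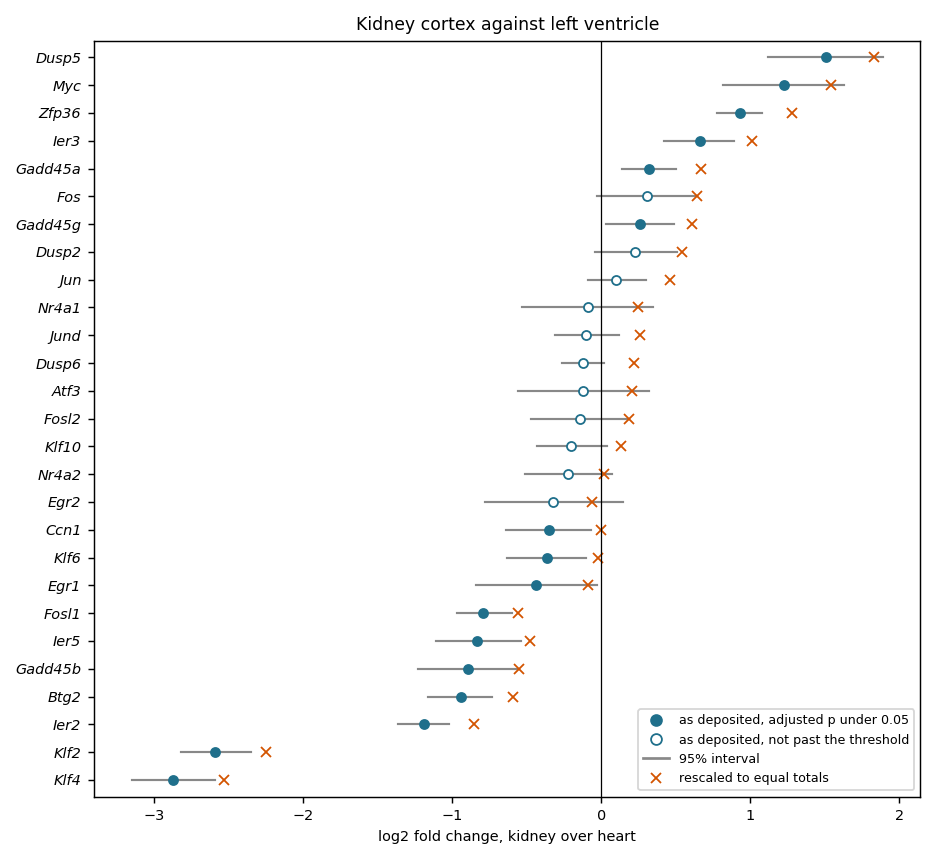
Log2 fold change of kidney over heart for the 27 tested genes, with 95% intervals; filled points pass an adjusted p of 0.05 and crosses are the estimates after rescaling libraries to equal totals. Klf4 and Klf2 lie at -2.87 and -2.59 and Dusp5 at 1.51, and the crosses lie to the right of the points for every gene. Fosl1 is drawn, but it reached the mean of 1 FPKM only through its heart values, and its point supports no statement.

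Within each organ most members had a larger SD between rats than the median gene. After removal of treatment means, the median SD of log2(FPKM + 0.5) over members was 0.28 in kidneys, beside 0.16 over all 12446 genes tested, and 0.32 in hearts, beside 0.17 over 12237 genes. In kidneys 21 of 26 members exceeded the median gene and 15 were in the most variable 25% of genes; in hearts the counts were 29 and 21 of 30. These counts are descriptions with no test. Without the 5 animals with Myl7 over 100 FPKM the heart medians were 0.25 for members and 0.14 for all genes, and without the 4 animals with Upk1a over 1 FPKM the kidney medians were 0.26 and 0.16.

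The most variable kidney genes were Dusp5 (SD 0.58), the orphan receptor Nr4a1 (0.57), the zinc finger Egr2 (0.49), Atf3 (0.41) and Klf6 (0.39). Dusp5 had 13.6, 15.7, 12.6, 14.4 and 4.94 FPKM in MaR1 kidneys, against 5.88, 11.8, 7.75, 11.3 and 15 FPKM in vehicle kidneys, and was lowest in RB039 and RB030. The adipocyte markers summed to 383 FPKM in the kidney of RB039 and to 9.82 FPKM in that of RB030, and their part was not tested. Nr4a1 had 6.02, 15.1, 7.96, 10.9 and 10.7 FPKM in MaR1 kidneys, against 11.8, 4.5, 11.4, 16.1 and 8.66 FPKM in vehicle kidneys. Egr2 had 1.22, 1.25, 1.41, 1.00 and 0.862 FPKM in MaR1 kidneys, against 2.58, 0.758, 1.55, 1.91 and 0.506 FPKM in vehicle kidneys, a wide vehicle range. Atf3 had 5.51, 7.35, 5.32, 4.73 and 4.07 FPKM in MaR1 kidneys, against 10.9, 5.11, 6.09, 10.6 and 5.40 FPKM in vehicle kidneys, with RB030 and RB033 above the rest.

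In hearts the most variable were Atf3 (SD 0.60), Myc (0.60), Egr2 and Egr3 (both 0.58) and Egr1 (0.57). Atf3 had 7.42, 7.16, 5.34, 6.6 and 4.49 FPKM in MaR1 hearts, against 14.1, 3.01, 5.82, 10.5 and 8.93 FPKM in vehicle hearts. Myc had 6.55, 2.20, 2.14, 3.76 and 2.14 FPKM in MaR1 hearts, against 5.52, 1.73, 2.92, 4.57 and 4.29 FPKM in vehicle hearts. RB035 held the highest Myc and RB030 the highest Atf3. Egr2 had 2.43, 2.07, 1.73, 1.64 and 0.857 FPKM in MaR1 hearts, against 0.913, 1.61, 0.895, 4.12 and 1.68 FPKM in vehicle hearts, and Egr3 had 2.07, 1.43, 0.879, 1.86 and 0.604 FPKM in MaR1 hearts, against 0.775, 0.765, 0.744, 2.39 and 2.22 FPKM in vehicle hearts. RB033 was the highest heart for both, as it was for Egr1.

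Members deviated together within libraries, as counts of highest and lowest values describe. In the heart of RB035 20 of 30 members had their highest MaR1 value, beside 30.6% of all genes, and in the heart of RB039 23 had their lowest, beside 23.6%. Among vehicle hearts RB033 held the highest value of 17 members, beside 25.8% of genes, and RB031 the lowest of 19, beside 22.7%. The sum of the 5 atrial markers (Nppa, Myl7, Myl4, Sln and Bmp10) was 5445 FPKM in RB035 and 367 FPKM in RB039 with MaR1. It was 10082 FPKM in RB033 and 2924 FPKM in RB031 with vehicle. The lowest atrial sum among vehicle hearts was 487 FPKM, in RB032. The vehicle heart of RB030, with Myl7 not over 10 times the lowest heart, summed to 3068 FPKM, above RB031 with Myl7 at 225 FPKM. The MaR1 heart of RB037, with the lowest Myl7 at 0.163 FPKM, summed to 1005 FPKM. The sum thus does not follow Myl7 alone and is not read as a measure of atrial tissue. The macrophage markers summed to 174 FPKM in RB035 and 81.3 FPKM in RB039 with MaR1, and to 127 FPKM in RB033 and 81.1 FPKM in RB031 with vehicle. The endothelial markers summed to 320 FPKM in RB035 and 217 FPKM in RB039 with MaR1, and to 291 FPKM in RB033 and 230 FPKM in RB031 with vehicle. In the vehicle heart of RB030, which held the highest value of 11 members beside 21.5% of genes, the macrophage markers summed to 151 FPKM. That was the highest macrophage sum of the vehicle hearts, while its endothelial markers summed to 233 FPKM. RB039 and RB031 were the lowest of their groups for both lists, and the part of these cells in the pattern was not tested. Of the kidneys, RB036 held the highest MaR1 value of 11 of 26 members, beside 18% of genes, RB030 the highest vehicle value of 10, beside 23.1%, and RB031 and RB034 the lowest of 11 and 10, beside 14.7% and 18.2%. In RB033 23 of 26 kidney members and 27 of 30 heart members lay above their group mean, beside 45.5% and 51.8% of genes.

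**Figure D5:**
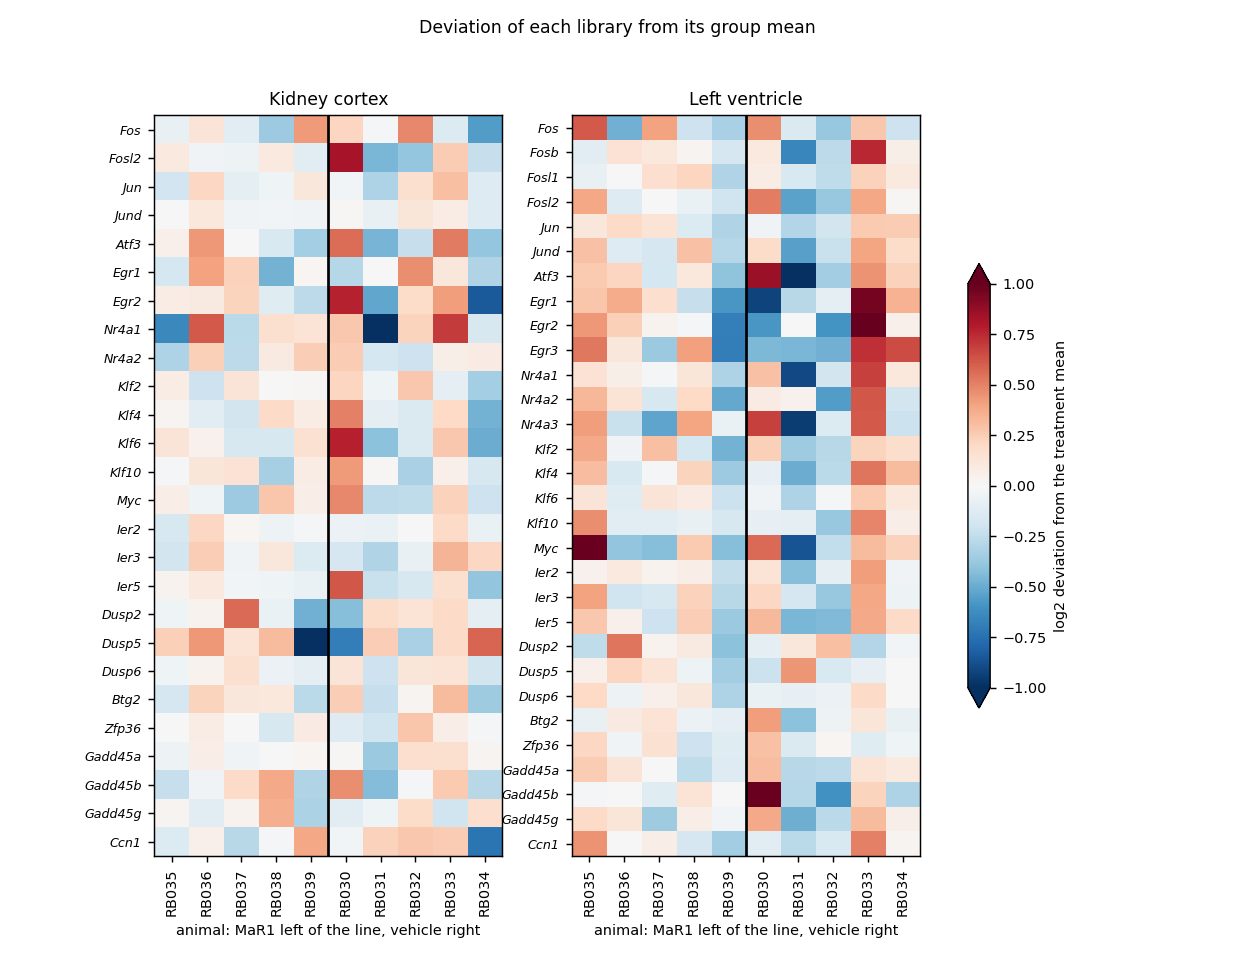
Log2 deviation of each library from its treatment mean for 26 genes in kidney (left) and 30 in heart (right), with MaR1 animals left of the black line. Columns of 1 colour, such as RB033 (red) and RB031 (blue) in both organs and RB039 (blue) in heart, show members deviating together.

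Kidney and heart of the same animal were then compared across 10 animals after removal of treatment means. Over 10987 genes 0 passed after adjustment for Pearson's r, and 445 genes (4.05%) had a positive r with an unadjusted exact permutation p under 0.05, as had 4 of the 26 members. The highest was Fosl2 with r = 0.87 (exact permutation p = 0.0041, adjusted p = 0.705) and rho = 0.81 (p = 0.0562, adjusted p = 0.828), and r was 0.84 without the 2 animals farthest from the median. Btg2 had r = 0.72 (exact permutation p = 0.0375, adjusted p = 0.841) and rho = 0.88 (p = 0.00639, adjusted p = 0.771), with r = 0.82 without the 2 farthest animals. Atf3 (r = 0.76, exact permutation p = 0.0369; rho = 0.78, p = 0.0407) and Dusp5 (r = 0.72, p = 0.0279; rho = 0.68, p = 0.0451), both with adjusted p of 0.814 or more, had r of 0.43 and 0.35 without the 2 farthest animals. Fos had r = -0.18 (exact permutation p = 0.609) and rho = -0.30 (p = 0.406).

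Which genes varied with Fos across the 10 libraries of an organ was read in the same way, with both values from 1 library and its depth, by Pearson's r over 12445 genes in kidney and 12236 in heart, and 0 genes passed in either; 10.6% and 15.2% of genes (1322 and 1860) had an unadjusted p under 0.05. Without 1 animal these counts ran from 564 (without RB039) to 1646 in kidney and from 742 (without RB035) to 2596 in heart. In heart the most similar members were Klf2 (r = 0.79, exact permutation p = 0.0246; rho = 0.76, p = 0.0312) and Fosl2 (r = 0.77, exact permutation p = 0.00333; rho = 0.68, p = 0.0131), both with an adjusted p of 0.326 for r and 0.373 for rho. Their r was 0.67 and 0.57 without the 2 hearts farthest from the median of Fos. Zfp36 (r = 0.70, exact permutation p = 0.0461) and Ier3 (r = 0.69, exact permutation p = 0.0472) followed, both with an adjusted p of 0.326. No other heart member had an unadjusted p under 0.05 for r, beside 15.2% of all genes. Among kidney members only Ccn1 and Dusp5 had, beside 10.6%. Single members are thus described, not the class. In kidney Ccn1 had r = 0.74 (exact permutation p = 0.0323, adjusted p = 0.423; rho = 0.62, p = 0.0791, adjusted p = 0.769) and Dusp5 r = -0.77 (exact permutation p = 0.0133, adjusted p = 0.365; rho = -0.67, p = 0.0537, adjusted p = 0.745), with r of 0.47 and -0.78 without the 2 farthest kidneys. Egr1 had r = 0.59 with Fos in kidneys (exact permutation p = 0.0963; rho = 0.55, p = 0.13) and 0.07 in hearts (p = 0.849; rho = -0.08, p = 0.835).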

How the data were processed

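Poly-A RNA was sequenced from kidney cortex and left ventricle of 10 rats, 5 per treatment, and groups follow the labels. The authors deposited FPKM for 30560 genes. Per the submitters' processing notes they used fastp, HISAT2 2.0.5, StringTie 1.3.3b and featureCounts 1.5.0-p3; the sources used here give neither genome build nor strandedness, and antisense overlaps cannot be resolved. Fragments recovered from FPKM and gene length were whole, within 0.01, for 100% of 371175 values above 0. Totals were 19383232 to 30342034 per library. The size by which each deposited library was scaled followed its median-of-ratios size factor over all 20 libraries (largest deviation 0.0%), not its total. The kidney of RB030, for example, had 27365595 assigned fragments and a scaling size of 34941948. Rescaling to equal totals put the assigned fragments in place of that size. No library is a copy: over 190 pairs, chi-square per degree of freedom was at least 8.0.

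Log2(FPKM + 0.5), which understates changes of low genes, was tested with limma 3.58.1 in R 4.3.3 (variance trend, two-sided) for genes with a mean of at least 1 FPKM, with Benjamini-Hochberg adjustment over all genes tested and a threshold of 0.05. Each organ was fitted alone, and the interaction and the organ difference in all 20 libraries without an animal block. Correlations used all 14400 orders within treatment. Replicates are separate animals. The animal number pairs kidney and heart because both come from 1 rat; own-animal correlations over 10987 genes ran from -0.00947 to 0.179 (3 above 0.1; 2 of 10 kidneys best with their own heart). The genes, their lists and the tests were chosen with earlier results of these data known. Named genes are those past the threshold plus the 5 of smallest p per comparison, the 5 most variable per organ, and Fos, Jun and Egr1. Steps were tested on simulated data. Python 3.11.15 and matplotlib 3.10.9 were used. Alternatives were pseudocounts, filters, scalings, voom, priors, the replicate block, each animal left out, and libraries with other tissue left out; those without the Myl7 over 100 FPKM animals, and those of the organ difference, interaction and spread without the Upk1a animals, were chosen after seeing the data.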

Additional observations from a re-analysis of the deposited data

Results flagged for a closer look

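Among 112 groups of 5 libraries (members with a mean of at least 1 FPKM in the organ, by treatment), 7 held a library whose gap to its nearest neighbour was over 0.71 of the group's range; chance gives about 1 in 20 such groups. In kidneys Jund was highest with MaR1 in RB036 at 115 FPKM, next to 107, Dusp5 was lowest with MaR1 in RB039 at 4.94 FPKM, next to 12.6, and Ier2 was highest with vehicle in RB033 at 6.87 FPKM, next to 5.92. In hearts Klf10 was highest with MaR1 in RB035 at 7.39 FPKM, next to 4.92, and Ier2 was lowest with MaR1 in RB039 at 12.5 FPKM, next to 15.2. With vehicle, Egr2 was highest in RB033 at 4.12 FPKM, next to 1.68, and Dusp5 was highest in RB031 at 5.10 FPKM, next to 3.64.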

How the results depend on the processing

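No member passed in kidney, heart or the interaction under any alternative run. Over all genes, MaR1 kidneys had 10 calls in the joint model with the animal as replicate block, and 0 to 1 without 1 animal (1 without RB035). MaR1 hearts had 1 call with no filter and 11 without the hearts whose Myl7 exceeded 10 times the lowest, which leaves 3 MaR1 rats against 1 vehicle rat that is assumed to vary like the others; Fos there had -0.54 and Egr1 1.10 (adjusted p = 0.492 and 0.219), and without the hearts with Myl7 over 100 FPKM they had -0.12 and 0.68. The interaction had 1 call at a pseudocount of 0.1 and 1 with no variance trend, 0 to 3 without 1 animal (3 without RB035 or RB039), and 0 with the replicate block. The estimates of Fos and Egr1 changed sign without 1 animal: -0.20 to 0.063 and -0.043 to 0.18 in kidney, -0.093 to 0.18 and -0.047 to 0.42 in heart, and -0.097 to 0.30 and -0.035 to 0.34 for the interaction. Without the Upk1a animals, which leaves only RB035 and RB037 with MaR1, the Fos interaction was 0.80 (adjusted p = 0.675) and that of Egr1 0.48. The Egr1 interaction was 0.50 without the Myl7 over 100 FPKM animals. The cause was not tested.

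Between organs 10983 genes were called, 11041 with the replicate block, which changed no member's call, and 7292 with a mean of at least 5 FPKM, where fewer genes were tested. With no filter Ccn1, Egr1 and Gadd45g lost their call. Equal totals called 7440 higher and 3739 lower in kidney, against 5657 and 5326 as deposited. Signs turned with equal totals for Atf3 (0.21), Dusp6 (0.22), Fosl2 (0.19), Jund (0.26), Klf10 (0.13), Nr4a1 (0.25) and Nr4a2 (0.024), with quantile scaling for Jund (0.033), and without the Myl7 over 100 FPKM animals for Dusp6 (0.042), Egr2 (0.29), Jund (0.047), Klf10 (0.068), Nr4a1 (0.13) and Nr4a2 (0.033). Nr4a1 ran from -0.16 to 0.0073 without 1 animal. Members called ran from 12 to 18 without 1 animal. The median SD of members was 0.34 and 0.30 in heart at pseudocounts of 0.1 and 1, 0.25 without the Myl7 over 100 FPKM hearts and 0.30 to 0.35 without 1 animal; in kidney it was 0.26 without the Upk1a kidneys and 0.23 to 0.30 without 1 animal. No correlation family gained a call. The kidney-heart r of Fos ran from -0.41 to 0.02 without 1 animal, highest without RB032. Depth limits Egr3, Egr4 and Fosb in kidney most.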
